A study of Mus musculus with 7 samples.

Results

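The MHC class II antigen presentation genes are 10 genes: those of the peptide-binding alpha and beta chains (H2-Aa, H2-Ab1 and H2-Eb1), the invariant chain (Cd74), the peptide-loading molecule H2-DM (H2-DMa, H2-DMb1 and H2-DMb2), its modulator H2-O (H2-Oa and H2-Ob), and Ciita, the transactivator that switches the others on. They were chosen by name, and each was read by 1 probe, so 10 of 10 were measured, among 16468 named genes and 22218 features in all. The study profiled the livers of 7 mice on 2-colour arrays. The wild-type littermates were 4 animals (1 female and 3 males), and the animals carrying a Zfp90 transgene were 3 (1 female and 2 males). Each animal was set against a shared pool made from the livers of 4 wild-type males and females, and whether these are the wild-type mice on the arrays is not given in the labels. Age, strain, MHC haplotype, housing, and the promoter that drives the transgene are not given in the sources used here either.

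Class II molecules present peptides from engulfed proteins to CD4 T cells. They are made by professional antigen-presenting cells (dendritic cells, B cells and macrophages, in liver including Kupffer cells), and by other cells after exposure to interferon gamma. The alpha and beta chains assemble in the endoplasmic reticulum around the invariant chain, which fills the groove until lysosomal proteases trim it and H2-DM exchanges the remaining fragment for a peptide. H2-O restrains H2-DM, mainly in B cells. Ciita does not bind DNA itself and is recruited by factors bound to the X and Y boxes of class II promoters. The chain genes differ in sequence between mouse strains more than almost any other genes.

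All values are log2 ratios of an animal to the pool, so 1 unit is a doubling, and they say nothing of how abundant one gene's transcript is beside another's. The labels do not settle the direction of the ratios. The Y-linked gene Kdm5d read -3.22 and -2.54 in the females and 0.14 to 0.66 in the males, and a positive value was taken to mean more in the animal than in the pool. Of 21 pairs of arrays, 3 correlated below -0.3 over all probes (the lowest at -0.497), which in itself leaves the direction unsettled. If the ratios ran the other way, higher and lower would swap throughout at the same p. The Y-linked Kdm5d would then be higher in both females than in a pool that includes males. On the array labelled as wild-type female, Zfp90 read 0.37, within the transgenic range of 0.34 to 0.58, while the wild-type males read -0.29 to -0.11. Genotype differences are therefore given over all animals and in the males alone, where that array has no part. Whether the samples of a group share a litter or a processing day is not given, so p-values measure the spread between these 7 samples. Precision is limited by the number of arrays.

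Promoter sequence was available in RefSeq (build GRCm38.p6) for 7 of the 10 genes, as 300 bases around each start, 250 of them upstream. H2-Ab1, Cd74 and Ciita had no entry. In 6 of the 7 genes the stretch holds a match to the Y box, the site of the factor NF-Y, with a match to the X box, the site of the RFX complex, upstream of it. These stretches are shown because the members differ in what they did in the liver while sharing this arrangement. Capitals mark GCAAC, or AAC followed after 2 bases by ATGATGC (forms of the X box), TGATTGG (the Y box, which holds CCAAT on the other strand) and TGACGTCA (the cAMP response element, called X2 in class II promoters); in H2-Eb1 and H2-Ob both X forms overlap.
H2-Aa, chr17:34287853-34287918, minus strand: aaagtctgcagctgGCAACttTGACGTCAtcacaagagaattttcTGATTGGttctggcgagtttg
H2-Eb1, chr17:34305762-34305826, plus strand: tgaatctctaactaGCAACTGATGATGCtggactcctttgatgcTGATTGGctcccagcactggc
H2-DMb1, chr17:34153085-34153148, plus strand: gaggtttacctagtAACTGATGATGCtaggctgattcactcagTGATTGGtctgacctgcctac
H2-DMb2, chr17:34145114-34145177, plus strand: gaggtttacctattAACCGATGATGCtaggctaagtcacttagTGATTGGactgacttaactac
H2-Oa, chr17:34092289-34092354, plus strand: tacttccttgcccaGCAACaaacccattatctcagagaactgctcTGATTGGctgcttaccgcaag
H2-Ob, chr17:34238804-34238866, plus strand: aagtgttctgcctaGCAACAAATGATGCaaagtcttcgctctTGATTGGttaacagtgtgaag

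The first base of the X match lay 28 to 31 bases upstream of the first base of TGATTGG in all 6 stretches. The Y box itself began between 92 bases (H2-DMb2) and 45 bases (H2-Oa) before the annotated start. Searched on both strands, TGATTGG was found in 7.82% of all 32851 promoters and the form with AAC and ATGATGC in 0.0396%, 13 promoters in all, of which 4 belong to these genes (H2-Eb1, H2-DMb1, H2-DMb2 and H2-Ob). Searched on the gene's own strand alone, GCAAC followed by ATTGG after 10 to 40 bases was found in 0.7% of promoters. Among them were those of H2-Aa, H2-Eb1, H2-Oa and H2-Ob. These motifs were chosen after the promoters had been read. Of the other forms, again searched on both strands, CCAAT was found for all 7 genes and in 37.4% of promoters, and CCTAGCAAC in that of H2-Ob and 0.804% of promoters. TGACGTCA and the looser TGACGNNN were found in that of H2-Aa alone among the members (1.79% and 20.7% of promoters), while GCAACAG (5.48%) and a form with CC before GCAAC and a G after it, each at a fixed spacing (1.67%), were found for 0 members. Of the 8 member promoters, 2 are those of H2-DMa, neither of which holds TGATTGG. The stretches of H2-DMb1 and H2-DMb2, neighbouring duplicate genes, are identical at 55 of 64 positions (85.9%). A match is a run of letters and does not show a bound factor.

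**Figure D1:**
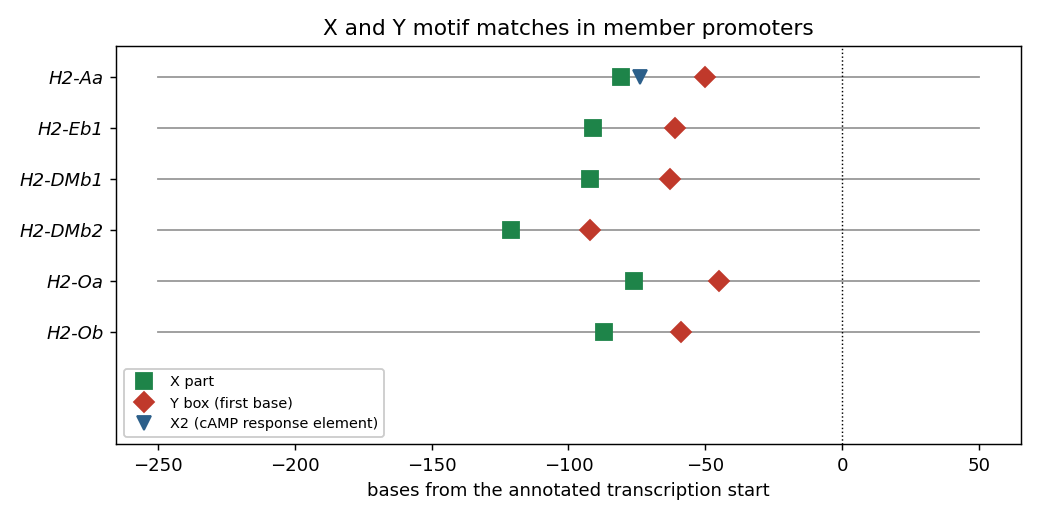
Position of the first base of the X match (square), the Y box (diamond) and X2 (triangle) in the 300-base promoters of 6 genes, in bases from the annotated start; for H2-DMb1 and H2-DMb2 the square marks the start of AAC. The X match precedes the Y box by 28 to 31 bases in each.

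The members fell into 3 patterns. H2-Aa, H2-Ab1 and H2-DMb1 read low in all 3 wild-type males and higher in each of the other 4 animals, H2-Eb1 varied widely among the wild-type animals, and 6 members stayed within 0.3 (1.23-fold) of the pool on every array. Of 22218 features, 51.6% stayed within that limit. In the model with genotype and sex, 0 of 10 members passed an adjusted p of 0.05 between genotypes (limma, Benjamini-Hochberg over all features), as 0.0% of all features did. All transgenic animals exceeded every wild-type animal in 0 members and 3.17% of features, and lay below all of them in 0 members and 2.84%. Unadjusted, 1 member (H2-Aa) had a p under 0.05, where 6.91% of all features did.

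H2-Aa encodes the alpha chain of the I-A molecule. Its ratio was 0.74 in the transgenic female, 0.65 and 0.28 in the transgenic males and 0.82 on the array labelled as wild-type female, against -0.60, -0.52 and -0.49 in the wild-type males. The wild-type males therefore lay below the pool within a range of 0.12, and every other animal lay above it. The transgenic mean was 0.56 ± 0.25 (SD, n = 3) and the wild-type mean -0.20 ± 0.68 (SD, n = 4), and the groups overlapped because of the wild-type female array. The fitted difference was 0.68 ± 0.21 SE (1.61-fold, 95% interval 0.19 to 1.18, limma adjusted p = 0.677), and exact permutation of the genotype labels (35 arrangements, sex ignored) gave a two-sided p of 0.229, where 0.0571 is the smallest possible. With 1 animal left out at a time, the fitted difference ran from 0.46 (without transgenic male 1) to 1.0 (without either female).

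H2-Ab1 encodes the beta chain that pairs with it, and its values ran in nearly the same order. The transgenic female read 0.39, the transgenic males 0.50 and 0.17, the array labelled as wild-type female 0.58, and the wild-type males -0.37, -0.18 and -0.23. Again the 3 wild-type males were the lowest of the 7 animals. The fitted difference between genotypes was 0.37 ± 0.17 SE (1.29-fold, 95% interval -0.03 to 0.76, limma adjusted p = 0.731; exact permutation p = 0.229, two-sided). Leaving out transgenic male 1 gave 0.19, and leaving out either female 0.59.

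H2-DMb1, a beta chain of the peptide-loading molecule, was the third gene of this pattern. It read 0.19 in the transgenic female, 0.45 and 0.01 in the transgenic males, 0.50 on the array labelled as wild-type female, and -0.21, -0.50 and -0.18 in the wild-type males. The gap between wild-type males and the rest was narrower here than in H2-Aa, since transgenic male 2 read near the pool. The fitted difference was 0.29 ± 0.20 SE (limma adjusted p = 0.812). It was 0.06 without transgenic male 1, 0.18 without wild-type male 3 and 0.53 without either female. All 3 wild-type males lay below every other animal in 3 of the 10 members, and in 4.06% of all features. The reverse order held in 0 members and 4.57% of features. Without the array labelled as wild-type female, the 3 wild-type males lay below all transgenic animals in the same 3 members and in 6.55% of features, and each list count of this order below is the same without it.

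**Figure D2:**
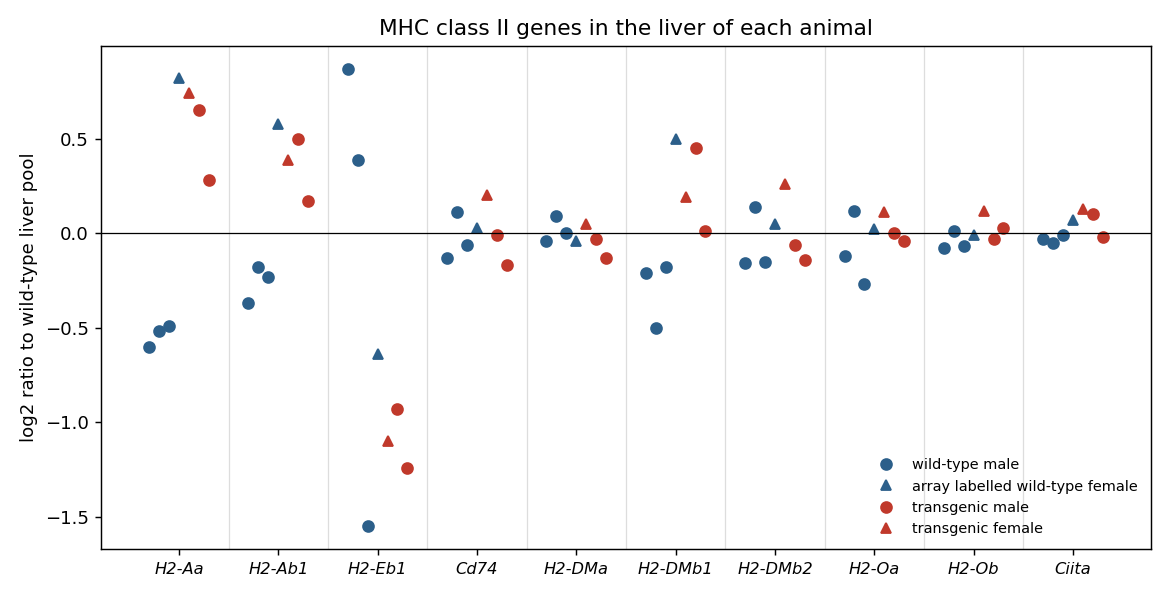
Log2 ratio to the wild-type liver pool (y axis) of the 10 class II genes in each of 7 animals; colour gives genotype, circles are males and triangles females. In H2-Aa, H2-Ab1 and H2-DMb1 the 3 wild-type males lie below 0 and every other animal above it, and H2-Eb1 spans -1.55 to 0.87.

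In the males alone, the same 3 genes had larger genotype differences than in the fit over all animals. In 2 transgenic against 3 wild-type males, H2-Aa differed by 1.0 ± 0.14 SE (2.0-fold, 95% interval 0.67 to 1.33), with an adjusted p of 0.139 in limma. H2-Ab1 differed by 0.59 ± 0.14 SE (1.51-fold, adjusted p = 0.369) and H2-DMb1 by 0.53 ± 0.17 SE (1.45-fold, adjusted p = 0.567). In these 3 genes both transgenic males lay above all 3 wild-type males, an order found in 11.2% of all features (the opposite order, in 0 members, in 11.4%). Called were 0 of 10 members and 0.0315% of features, while 3 members and 6.96% of features had an unadjusted p under 0.05. The genotype difference is the same number without the array labelled as wild-type female, without the transgenic female or without both, since the remaining female then informs only the sex term.

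Between the single females the 3 differences had the opposite sign. The transgenic female lay below the array labelled as wild-type female by 0.08 in H2-Aa, 0.18 in H2-Ab1 and 0.31 in H2-DMb1. The interaction of genotype and sex, the difference between the genotype effects in females and in males, was -1.08 ± 0.25 SE for H2-Aa (limma adjusted p = 0.336), -0.78 ± 0.25 for H2-Ab1 (0.488) and -0.85 ± 0.32 for H2-DMb1 (0.565). It passed for 0 members and for 0.072% of features, and at an unadjusted p under 0.05 stood 3 members and 8.42% of features. With 1 female per genotype its error comes from the males alone. Zfp90 itself had the same shape, with a difference of 0.69 ± 0.11 SE in the males and -0.02 between the females.

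**Figure D3:**
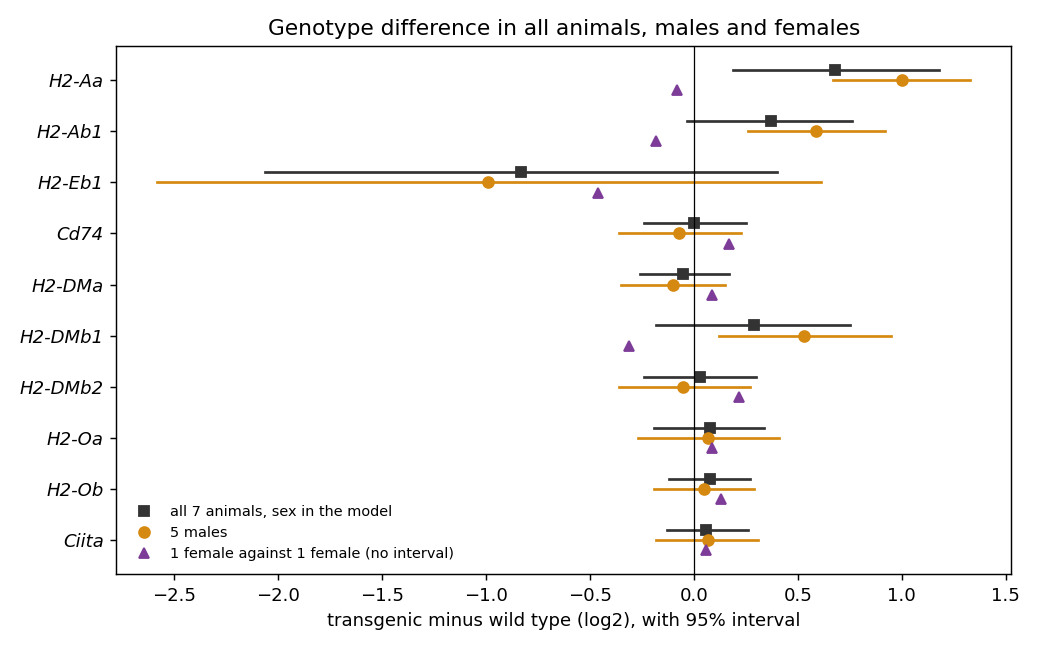
Transgenic minus wild-type difference (log2, x axis) of each class II gene in the model over all 7 animals (square) and in the 5 males (circle), with 95% intervals, and between the single females (triangle, no interval). H2-Aa, H2-Ab1 and H2-DMb1 lie at 0.53 to 1.0 in males and below 0 between females.

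The members were also compared between sexes, since 2 of 7 animals were female. H2-Aa averaged 0.78 in females and -0.14 in males, a fitted difference of 0.85 ± 0.23 SE (1.80-fold, limma adjusted p = 0.283), and H2-Ab1 differed by 0.47 ± 0.19 SE (adjusted p = 0.499). Both females lay above all 5 males in H2-Aa alone among the members, an order seen in 6.04% of features (6.83% in reverse, with 0 members). Of the 10 members 0 passed, as against 0.351% of features, and 2 had an unadjusted p under 0.05 as against 9.23%. Without the transgenic female, 1 member (H2-Aa) and 1.14% of features were called, but the female side is then the single array labelled as wild-type female, and the error comes from the males alone. In H2-Aa that array lay 1.36 above the mean of the wild-type males. The transgenic female lay 0.28 above the mean of the transgenic males.

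H2-Eb1, the beta chain of the second class II molecule, I-E, had the widest spread of the 10 genes. Wild-type males 2 and 3 read 0.87 and 0.39, wild-type male 4 read -1.55, and the array labelled as wild-type female read -0.64. The transgenic animals were close together, at -1.10 in the female and -0.93 and -1.24 in the males. The 3 wild-type males thus spanned 2.42 log2 units (5.35-fold) on both sides of all 3 transgenic animals. Their SD of 1.28 was larger than in 99.9% of features, and 14 features exceeded it, whereas H2-Aa in the same males had an SD of 0.06. The fitted genotype difference was -0.83 ± 0.53 SE (1.78-fold lower, 95% interval -2.06 to 0.40, limma adjusted p = 0.792; exact permutation p = 0.343, two-sided), and in males -0.99 ± 0.66 SE (adjusted p = 0.934). It was -0.49 without wild-type male 2 and -1.30 without wild-type male 4. Over the wild-type males the I-E alpha chain gene H2-Ea had an SD of 0.21, and the neighbouring beta chain gene H2-Eb2 one of 0.09. The place of the H2-Eb1 probe in the transcript is not stated in the sources used here.

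Cd74, whose invariant chain travels with every class II molecule, read 0.20 in the transgenic female, -0.01 and -0.17 in the transgenic males, 0.03 on the array labelled as wild-type female, and -0.13, 0.11 and -0.06 in the wild-type males. The genotypes overlapped fully. Its fitted difference was 0.00 ± 0.11 SE with a 95% interval of -0.24 to 0.25 (limma adjusted p = 0.998), and in males -0.07 ± 0.12 SE. Its interval in males ran from -0.36 to 0.23, and that of H2-Aa from 0.67 to 1.33.

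The other quiet members were Ciita, H2-DMa, H2-DMb2, H2-Oa and H2-Ob. With Cd74, their ratios ran from -0.27 to 0.26 and their fitted differences from -0.05 to 0.08, at adjusted p between 0.913 and 0.998 in limma. Their 95% intervals together reached from -0.26 to 0.34, changes of 1.20-fold down and 1.26-fold up. Signal over background was not used here, so how well these 6 probes detected their transcripts is unknown.

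Ciita read 0.13 in the transgenic female, 0.10 and -0.02 in the transgenic males, 0.07 on the array labelled as wild-type female, and -0.03, -0.05 and -0.01 in the wild-type males. Its SD over the 7 arrays was 0.07, larger than in 5.46% of features. The transgenic and wild-type ranges overlapped, and the lowest 2 readings were those of wild-type males.

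H2-DMa, the alpha chain of the loading molecule, read 0.05 in the transgenic female, -0.03 and -0.13 in the transgenic males, -0.04 on the array labelled as wild-type female, and -0.04, 0.09 and 0.00 in the wild-type males. H2-DMb2 encodes a second beta chain and read 0.26 in the transgenic female, -0.06 and -0.14 in the transgenic males, 0.05 on the array labelled as wild-type female, and -0.16, 0.14 and -0.15 in the wild-type males. Its difference in males was -0.05 ± 0.13 SE, beside 0.53 ± 0.17 for its duplicate H2-DMb1. The duplicates are close in sequence, and how far their probes tell them apart is not stated in the sources used here.

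H2-Oa and H2-Ob are the alpha and beta chains of H2-O. H2-Oa read 0.11 in the transgenic female, 0.00 and -0.04 in the transgenic males, 0.02 on the array labelled as wild-type female, and -0.12, 0.12 and -0.27 in the wild-type males. H2-Ob read 0.12 in the transgenic female, -0.03 and 0.03 in the transgenic males, -0.01 on the array labelled as wild-type female, and -0.08, 0.01 and -0.07 in the wild-type males. Neither separated the genotypes. Over all members, 8 fitted differences were positive and 2 negative, with a median of 0.07, while the median of all features was -0.005. In males 6 were positive and 4 negative (median 0.06 beside -0.018).

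All members but Cd74 and Ciita lie in the class II region of the MHC on chromosome 17. Among the measured protein-coding genes from 15 genes before the first member to 15 after the last (gene order of GRCm38.p6), 30 were not members. Their median genotype difference was 0.00, 0 passed limma's threshold, and 3 had an unadjusted p under 0.05: Psmb9, Wdr46 and Gpsm3. Psmb9, an interferon-inducible immunoproteasome subunit encoded between H2-DMb1 and H2-Ob, read 0.78 in the transgenic female, 0.88 and 0.63 in the transgenic males, 0.75 on the array labelled as wild-type female, and -0.65, -0.69 and -0.43 in the wild-type males. As in H2-Aa, the 3 wild-type males were lowest, though the other animals were ranked differently. Psmb9 differed by 0.96 ± 0.25 SE (limma adjusted p = 0.653) and, in males, by 1.35 ± 0.13 SE (adjusted p = 0.0732). Its neighbour Psmb8, a further immunoproteasome subunit, differed by 1.34 in males, whereas the peptide transporter gene Tap1 between them differed by -0.06. Among the 30 genes the largest SD over the wild-type males was 0.53, and 0 reached that of H2-Eb1.

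**Figure D4:**
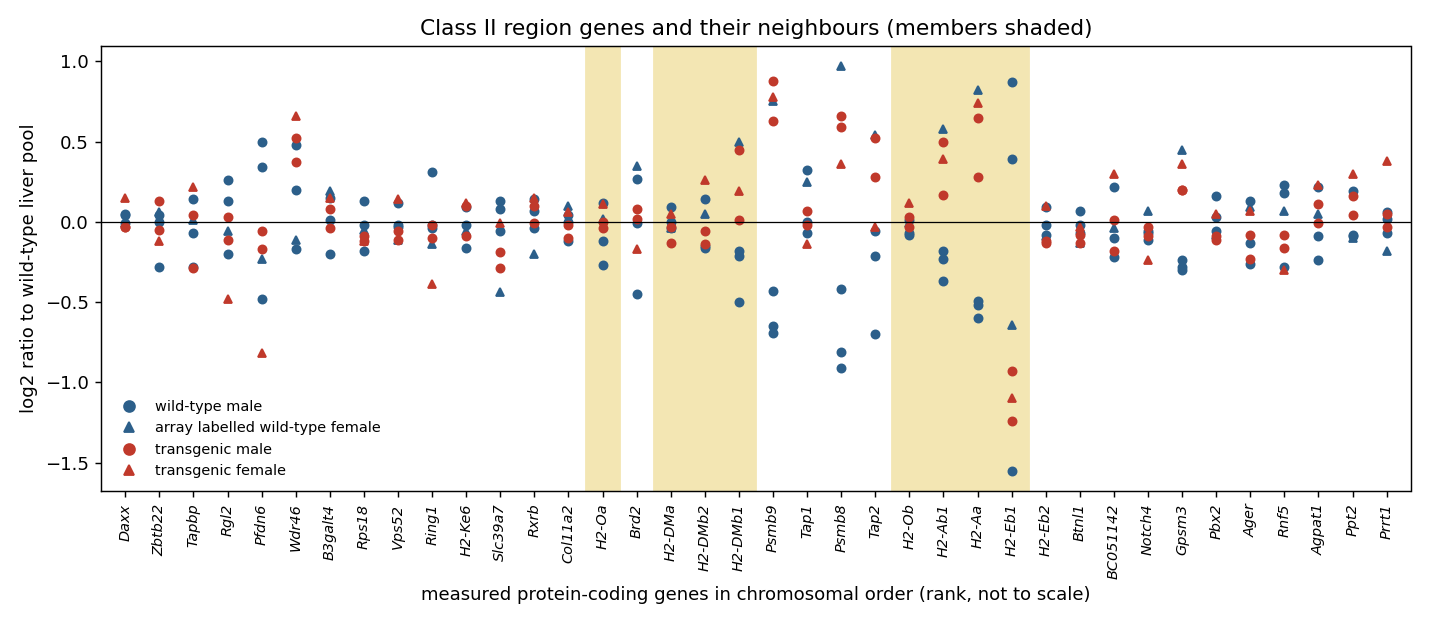
Log2 ratio to the pool (y axis) of 38 measured genes in chromosomal order (x axis, ranks), with class II members shaded; symbols as in the plot of members by animal. Psmb9, Psmb8, Gpsm3, H2-DMb1, H2-Ab1, H2-Aa and, narrowly, Tap2 separate the wild-type males from the rest, and H2-Eb1 has the widest spread.

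Of 22 other measured genes for class II antigen processing, transcription and costimulation, 16 had positive and 6 negative fitted differences (median 0.11). Of these 0 passed, and 0 had an unadjusted p under 0.05. In males 17 were positive and 5 negative (median 0.12), and 0 passed (1 unadjusted, Ctss, at 1.64 ± 0.37 SE). The smallest p belonged to the lysosomal protease Ctsl (0.26 ± 0.12 SE), Ctss, the cathepsin that trims the invariant chain (0.98 ± 0.47), the Y box factor subunit Nfya (0.29 ± 0.15) and Creb1, which binds cAMP response elements (0.16 ± 0.08), at adjusted p of 0.725 to 0.753 in limma. Ctss read 0.31 to 0.65 in transgenic animals, 1.26 on the array labelled as wild-type female and from -1.64 up to -0.41 among wild-type males. Together with the costimulatory ligand Cd86, it made 2 of 22 genes in which the wild-type males were lowest.

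As in H2-Aa, the wild-type males were lowest in part of the genes of the interferon gamma axis and of class I presentation. Of 21 interferon axis genes, 15 were positive and 6 negative (median 0.09), 0 passed (1 at an unadjusted p under 0.05), and the wild-type males were lowest in 8, against 4.06% of all features. The chemokine Cxcl9 differed by 1.22 ± 0.46 SE (adjusted p = 0.718), the GTPases Gbp4 by 0.34 ± 0.17, Tgtp1 by 0.59 ± 0.36 and Gbp3 by 0.65 ± 0.46. In males the list's median was 0.20, with 17 of 21 positive and 0 passing (8 unadjusted). Between the females it was -0.53. Of 21 class I genes, 13 were positive and 8 negative, with a median of 0.08 (0.43 in males and -0.41 between the females). Of these 0 passed (5 unadjusted, and in males 0 and 9, all positive), and the wild-type males were lowest in 8. The list's median in the transgenic female (-0.03) was not above that in wild-type male 4 (-0.02). Psmb9, the class I light chain B2m (0.53 ± 0.14 SE), the proteasome activator Psme2 (0.46 ± 0.12) and the immunoproteasome subunit Psmb10 (0.52 ± 0.18) had the smallest p, at adjusted p of 0.653 to 0.718 in limma. Of the 27 other class II and class III region genes in a list of their own, 10 were positive and 17 negative (median -0.05), 0 passed (1 unadjusted), and the wild-type males were lowest in 0. In males the signs were again 10 and 17 (median -0.06), and 0 passed (1 higher and 1 lower unadjusted). Wdr46 (0.42 ± 0.18 SE), Neu1 (-0.39 ± 0.24), Stk19 (-0.22 ± 0.14) and C2 (0.18 ± 0.11) led it, at adjusted p of 0.721 to 0.792. Psmb9, Psmb8 and Tap2, counted with class I, and Gpsm3 lie in the region too but outside that list. The wild-type males were lowest in each of these, in Tap2 by a narrow gap (-0.06 in wild-type male 4, -0.03 in the transgenic female). Tap1 and Tapbp, region genes also counted with class I, did not show that order.

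Markers of macrophages and of leukocytes at large were also low in the wild-type males. In bulk liver, fewer cells of a type and less RNA per cell cannot be told apart. Macrophage and Kupffer cell markers had medians of 0.39 in the transgenic female, 0.33 and 0.13 in the transgenic males, 0.73 on the array labelled as wild-type female, and -0.53, -0.61 and -0.13 in the wild-type males. The wild-type males were lowest in 11 of these 17 genes, and genotype differences were positive in 15 (median 0.28, 0.62 in males), with 0 passing (4 unadjusted, and in males 0 and 10). Cd163 (1.16 ± 0.19 SE), Aif1 (0.95 ± 0.19), Marco (1.12 ± 0.33) and C1qa (0.90 ± 0.27) had the smallest p, at adjusted p of 0.475 to 0.677 in limma. The 2 negative differences were those of C1qb (-0.05 ± 0.12) and Adgre1 (-0.04 ± 0.39, but 0.50 ± 0.31 in males). In males 14 macrophage genes were positive and 3 negative: C1qb (-0.11 ± 0.15 SE), Cx3cr1 (-0.10 ± 0.10) and Cd68 (-0.06 ± 0.12). Pan-leukocyte genes had medians of 0.14 to 0.40 in transgenic animals, 0.64 on the array labelled as wild-type female and -0.46 to -0.17 in the wild-type males, who were lowest in 6 of 8, among them Ptprc, which encodes CD45, and Laptm5 (0.51 ± 0.26). Genotype differences were positive in 6 of 8 (median 0.33), 0 passed (0 unadjusted), and Rac2 (0.58 ± 0.26), Cd53 (0.55 ± 0.28) and Cd48 (0.25 ± 0.13) came with Laptm5 at adjusted p of 0.725 to 0.755. In males the median was 0.56, again with 6 positive and 0 passing (5 higher and 1 lower unadjusted). The lower gene, Cd52, which encodes a leukocyte surface glycoprotein, ran the other way: it read 0.13 to 0.47 in the wild-type males, -0.37 to -0.16 in transgenic animals and -0.72 on the array labelled as wild-type female, a difference of -0.23 ± 0.22 SE and, in males, -0.56 ± 0.14. Their part in the values of H2-Aa, H2-Ab1 and H2-DMb1 was not tested.

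Dendritic and B cells are the other professional antigen-presenting cells named above. Dendritic cell medians were 0.12 in the transgenic female and 0.11 and 0.02 in the transgenic males. They were 0.13 on the array labelled as wild-type female, and -0.10, -0.00 and -0.01 in the wild-type males. The wild-type males were lowest in 4 of 12 dendritic cell genes (Itgax, Zbtb46, Batf3 and Clec10a) and in 1 of 10 B cell genes, Cd22, an inhibitory receptor of B cells (0.71 ± 0.16 SE, limma adjusted p = 0.576). Of the 12 dendritic cell genes, 8 differences were positive and 4 negative, both over all animals (median 0.09) and in males (median 0.13; 0 passed, 3 higher and 1 lower unadjusted). Cd209a, a lectin receptor gene of dendritic cells, ran the other way, at 0.04 to 0.36 in the wild-type males, -0.25 to -0.07 in transgenic animals and -0.56 on the array labelled as wild-type female (-0.18 ± 0.19 SE, and in males -0.46 ± 0.13). The list was led by Batf3 (0.42 ± 0.25), Ccl22 (0.31 ± 0.19), Clec10a (0.51 ± 0.32) and Zbtb46 (0.20 ± 0.15). B cell genes had a median of 0.00 (4 positive and 6 negative, and in males -0.05 with the same split and 1 unadjusted), where Cd79b (0.16 ± 0.12), Cd37 (0.12 ± 0.10) and Fcrla (-0.10 ± 0.11) came after Cd22. T cell genes had a median of 0.05 over 11 genes (7 positive; 0.06 and 6 in males, 1 unadjusted), 1 of them, Cd2, with the wild-type males lowest. The wild-type males were highest in 1 gene each of the leukocyte (Cd52), dendritic (Cd209a), B (Fcrla) and T cell (Cd4) lists, where 4.57% of all features had that order. Neutrophil (median -0.03, 8 genes), sinusoidal endothelial (-0.02, 10 genes) and hepatocyte markers (0.03, 10 genes) had 0, 0 and 1 genes with the wild-type males lowest, and medians of 0.04, -0.03 and 0.02 in males. In males, 1 neutrophil gene (Ngp, 0.96 ± 0.16 SE), 0 endothelial genes and 1 hepatocyte gene (Cps1, 0.50 ± 0.11) had an unadjusted p under 0.05. In these 6 lists 0 genes passed, and over all animals 1 B cell gene and 3 hepatocyte genes stood at an unadjusted p under 0.05. The hepatocyte genes ran in both directions: Cps1 was higher (0.59 ± 0.11 SE, limma adjusted p = 0.475), and Apob (-0.43 ± 0.14) and Serpina1a (-0.28 ± 0.12) were lower. Because every value is a ratio to liver, the absolute level of hepatocyte markers could not be checked.

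**Figure D5:**
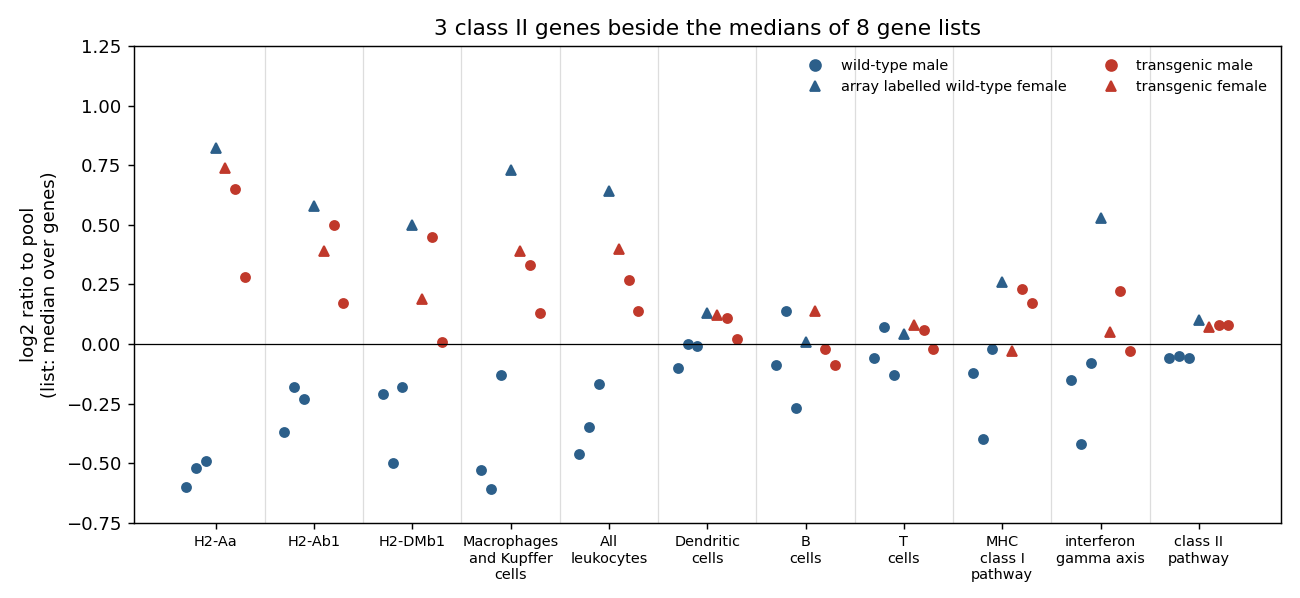
Log2 ratio to the pool of H2-Aa, H2-Ab1 and H2-DMb1 beside the median over the genes of 8 lists in each animal (y axis, log2). The macrophage and leukocyte medians are below 0 in the 3 wild-type males and above 0 in the other 4 animals. The class II pathway medians split more narrowly (-0.06 to -0.05, and 0.07 to 0.10). So do the dendritic cell medians (-0.10 to -0.00, and 0.02 to 0.13). The B and T cell medians show no such split.

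The genes whose ratios ran most like the mean of H2-Aa, H2-Ab1, H2-Eb1 and Cd74 over the 7 arrays were Ppp1r17 (Pearson r = 0.984), 4930570E03Rik (0.980), Dlx3 (0.980), Dnah5 (0.973) and Kng2 (0.969), with 19 of 16458 other named genes above 0.95. That mean mixes the opposed patterns of H2-Aa and H2-Eb1. Taken for H2-Aa alone, a choice made after its values were seen, the nearest were Atp8b2 (0.996), Sash3 (0.994), Sytl2 (0.993), Igsf6 (0.993) and Ptpn18 (0.992), with 69 genes above 0.95. For H2-Eb1 alone they were Fam83c (0.978), Sva (0.965), Plcb4 (0.930), Retnlb (0.924) and Coq9 (0.923), with 2 genes above 0.95. Over the same arrays H2-Aa had an r of 0.985 with H2-Ab1, 0.910 with H2-DMb1, 0.861 with Ciita and -0.502 with H2-Eb1, and from -0.236 (H2-DMa) to 0.582 (H2-Ob) with the other members. These r describe 7 arrays that share 1 pool, and carry no test.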

How the data were processed

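The deposited table holds log10 ratios, 1 per probe and animal, for 23574 probes with 0 missing values. The log base was read from values ending at exactly -2 and 2. Per the labels, Cy3 and Cy5 targets were made by aminoallyl labelling and dye swaps were used; how the swaps were combined, background correction and normalization are not given in the sources used here. They were turned into log2 ratios with the factor 3.32. The platform annotation from GEO gave 1 symbol for 17824 probes, several for 50 and none for 5700. Probes of a gene were averaged (1150 genes). Array medians lay between -0.014 and 0.031. Differences were fitted with limma 3.58.1 (R 4.3.3), genotype and sex in the model, all 7 arrays, adjusted by Benjamini-Hochberg over 22218 features and called at 0.05. The interaction was fitted apart. Single members also got exact permutation tests (scipy 1.17.1). On simulated data for transgenic against wild type with 22218 features, the fit called 44 of 100 planted 1.5-fold changes, 99 of 100 planted 3-fold changes and 13 unchanged features. The simulated noise was normal, independent between features and arrays, with each feature's spread drawn toward the median. It left out variation shared across an array, so these counts check the fit and do not give its power on these arrays. Named genes were all members, up to 4 genes of each list with the smallest p, and the 5 nearest genes by correlation. Others (Psmb8, Tap1, Tap2, Tapbp, Gpsm3, Cd86, Ptprc, Itgax, Cd52, Cd209a, C1qb, Adgre1, Cx3cr1, Cd68, H2-Ea, H2-Eb2, Ngp) were named after their values were seen. The members and lists were chosen with earlier results of these data known.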

Additional observations from a re-analysis of the deposited data

Results flagged for a closer look

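Of the 10 members, 1 had a wild-type array far from the other 3: in H2-Aa the array labelled wild-type female (0.82) lay above the wild-type males (-0.60 to -0.49), a gap of 0.918 of the group's range, where Dixon's 95% limit for 4 samples is 0.829. Chance flags about 1 in 20 groups, and the share of all features past this limit was not counted. That array is also the only one labelled female among the 4, so the gap does not separate sex from other differences.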

How the results depend on the processing

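The count of 0 members called between genotypes held under each alternative tried, from centring and quantile normalization to leaving out each animal. The alternatives gave 9 estimates per member that differ from the reported one, since leaving out either female, or using males alone, gives a single estimate and the variance and probe settings leave it as it was. In these H2-Aa (0.46 to 1.0), H2-Ab1 (0.19 to 0.59) and H2-DMb1 (0.06 to 0.53) kept a positive difference and H2-Eb1 a negative one (-1.30 to -0.49). The signs of 3 members near 0 turned. Cd74 (-0.07 to 0.08 with 1 animal left out) turned to -0.07 in males alone and without either female, and to -0.02 without transgenic male 1 or wild-type male 2. H2-DMb2 (-0.05 to 0.11) turned to -0.05 in males alone and without either female, and H2-DMa (-0.10 to 0.00) to 0.00 without transgenic male 2. The count of features called, 0 over all animals, ran from 0 to 7 when 1 animal was left out and was 7 in males alone or without the array labelled wild-type female, 4 among the features with the larger ratios and 2 with a variance trend. Members called between sexes ran from 0 to 1 with 1 animal left out, 1 without the transgenic female, where females are 1 array. No paired analysis was made, because the labels do not pair transgenic with wild-type animals.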
